A study of Mus musculus with 96 samples.

Results

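The 6 stem-loops described here are the mouse loci of miR-137, miR-138, miR-153 and miR-218, microRNAs known for roles in neurons and at synapses. They were taken by miRBase stem-loop accession from the deposited count table, as mir-137 (MI0000163), mir-138-1 (MI0000722), mir-138-2 (MI0000164), mir-153 (MI0000175), mir-218-1 (MI0000700) and mir-218-2 (MI0000701), and make up 6 of its 1187 stem-loops. The rule goes by name and sets no threshold on a measured value, though it was made with earlier results of these data known. Their levels come from small RNA sequencing of cortex in mice (C57BL/6 in the labels, C57BL/6J in the crosses that the methods of the study describe) heterozygous for a knock-in *Htt* allele whose CAG length is 20, 50, 92 or 140 (Q20, Q50, Q92 and Q140), and in wild type (WT) mice from the Q20 and the Q50 lines. Mice were 10 or 6 months old, with 8 libraries (4 females and 4 males) in each of the 12 groups and 96 in all. Each library came from another mouse, so that p-values refer to the spread between mice. The WT mice of both lines and the Q20 mice, which also carry a knock-in allele, served together as controls. The labels place Q20 and Q50 mice in cages with WT animals, and Q92 and Q140 mice in cages of their own genotype, whereas the published methods state mixed housing and make no exception for these lines, and the sources differ here. Since neither Q92 nor Q140 has WT littermates among these libraries, line and genotype cannot be told apart for them. The knock-in sits in the endogenous gene, so that the model singles out no cell type.

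MicroRNAs are cut from a hairpin, the stem-loop, either arm of which can give a mature strand. The mature strand lets a silencing complex find messenger RNAs, mainly by pairing of its seed (bases 2 to 8), and lowers their translation and stability. In neurons this acts partly at the synapse: miR-138 was described in rat hippocampal neurons as a regulator of dendritic spine size, miR-137 controls neuronal maturation and presynaptic genes in mice, miR-153 was described in zebrafish as a regulator of the vesicle release protein Snap25, and miR-218 is abundant in mouse motor neurons. Each count here is of a whole stem-loop, so that the arms are not told apart.

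The mature strands are shown because the seeds separate the 4 families and because the paired loci share a strand. Sequences and positions are those of RefSeq on GRCm38, the build named in the methods of the study, with all 6 stem-loops matched, and the seed is in capitals.

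miR-137-3p: uUAUUGCUuaagaauacgcguag

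miR-137-5p: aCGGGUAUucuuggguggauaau

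miR-138-5p: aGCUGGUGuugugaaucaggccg

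miR-138-1-3p: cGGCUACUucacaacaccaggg

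miR-138-2-3p: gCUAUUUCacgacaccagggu

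miR-153-3p: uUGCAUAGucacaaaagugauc

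miR-153-5p: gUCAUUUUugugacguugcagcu

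miR-218-5p: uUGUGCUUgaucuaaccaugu

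miR-218-1-3p: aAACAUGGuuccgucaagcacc

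miR-218-2-3p: cAUGGUUCugucaagcaccgcg

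No seed was shared between these families. Among the 1679 mature strands of the RefSeq table, the seed of miR-218-5p also occurs in miR-7002-3p, and the seeds of miR-137-3p, miR-138-5p and miR-153-3p occur in no other strand.

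The hairpins of the paired loci are shown to make visible what reads can and cannot tell apart, with the strand that both loci of a pair give in capitals.

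mir-138-1: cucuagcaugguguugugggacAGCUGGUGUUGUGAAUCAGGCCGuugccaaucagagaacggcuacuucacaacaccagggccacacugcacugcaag

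mir-138-2: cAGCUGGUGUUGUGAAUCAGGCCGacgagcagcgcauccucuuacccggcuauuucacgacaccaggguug

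mir-218-1: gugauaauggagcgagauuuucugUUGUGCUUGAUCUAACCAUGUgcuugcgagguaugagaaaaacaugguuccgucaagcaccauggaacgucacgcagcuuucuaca

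mir-218-2: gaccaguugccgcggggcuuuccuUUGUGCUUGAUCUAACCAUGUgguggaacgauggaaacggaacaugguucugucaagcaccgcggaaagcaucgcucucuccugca

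The longest run common to both hairpins was 24 bases for mir-138 and 22 bases for mir-218, so that a read of the 5p strand fits both loci of its pair while a read of the 3p strand fits 1. In GENCODE vM21, mir-137 (chr3:118433857-118433929) lies in an exon of the long transcript Gm26871, mir-138-1 (chr9:122682876-122682974) in an exon of the transcribed pseudogene Gm47135 and mir-138-2 (chr8:94324311-94324381) in an exon of the lincRNA C78859. Mir-153 (chr12:117250817-117250885) lies in an intron of Ptprn2, which encodes a dense-core vesicle protein. Mir-218-1 (chr5:48223942-48224051) and mir-218-2 (chr11:35616816-35616925) lie in introns of Slit2 and Slit3, which encode secreted axon guidance proteins. All 6 are on the + strand and in the same orientation as these genes.

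The total of a library lay between 3698376 and 12142170 counts in mice of 10 months, and between 4797428 and 7651621 counts in mice of 6 months. The lowest count of any of the 6 stem-loops in a library was 2392, and all 6 passed the filter on low counts in every fit, so counting error is small beside the spread between mice. In all, 12 libraries that stood apart from the others of their age were left out of the fits, with 42 kept at each age (23 and 20 of them controls, at 10 and at 6 months). Of these 12, 3 were Q92 females at 10 months, which left 5 libraries of that group. Values below are in CPM, the count scaled to a common library size after TMM normalization, over kept libraries, and log2 changes are given ± SE. A further value is the summed level of the 8 stem-loops with the largest absolute loadings on the first principal component of the control libraries. This component was taken over all 48 control libraries, those left out of the fits included. It is in CPM without TMM scaling. At 6 months its median was 688 CPM in Q92 and 714 CPM in Q140 against 1334 CPM in controls. At 10 months its median was 2517 CPM in the 5 kept Q92 libraries and 698 CPM in Q140, against 867 CPM in controls. The 3 Q92 libraries of 10 months that were left out lay at 49980, 40280 and 31900 CPM. Those left out of other groups of that age lay at 29270 CPM (Q50), 19040 CPM (WT of the Q50 line) and 538.2 CPM (Q140). Within groups this summed level correlated weakly with mir-153 and mir-138-2 (r = -0.065 and 0.067 over 96 libraries) and with r = -0.293 for mir-218-2 and -0.269 for mir-218-1. These correlations are a description.

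Mir-138-2 was by far the most abundant of the 6. Compared per length, in FPKM as the authors give it, mir-138-2 had a median of 157200 over the 96 libraries (range 99440 to 251400) and ranked 18th of the 1187 stem-loops by mean FPKM. Mir-153 followed with a median of 21590 FPKM (13950 to 28990), mir-218-2 with 15250 FPKM (12150 to 18590) and mir-138-1 with 9994 FPKM (5957 to 18370). The lowest were mir-137 with a median of 8658 FPKM (5212 to 12960) and mir-218-1 with 6536 FPKM (5057 to 8166). Mir-138-2 exceeded mir-153 in 96 of 96 libraries, mir-153 exceeded mir-218-2 in 95 and mir-218-2 exceeded mir-138-1 in 93, while the levels of mir-138-1 and mir-137 (83 of 96 libraries) and of mir-137 and mir-218-1 (79 of 96) overlapped widely. FPKM divides by the length of the stem-loop, from 69 to 110 bases here, although the reads come from its mature strands. The levels of the miR-138 and miR-218 loci also depend on how the reads shared within each pair were divided, which is not stated.

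**Figure D1:**
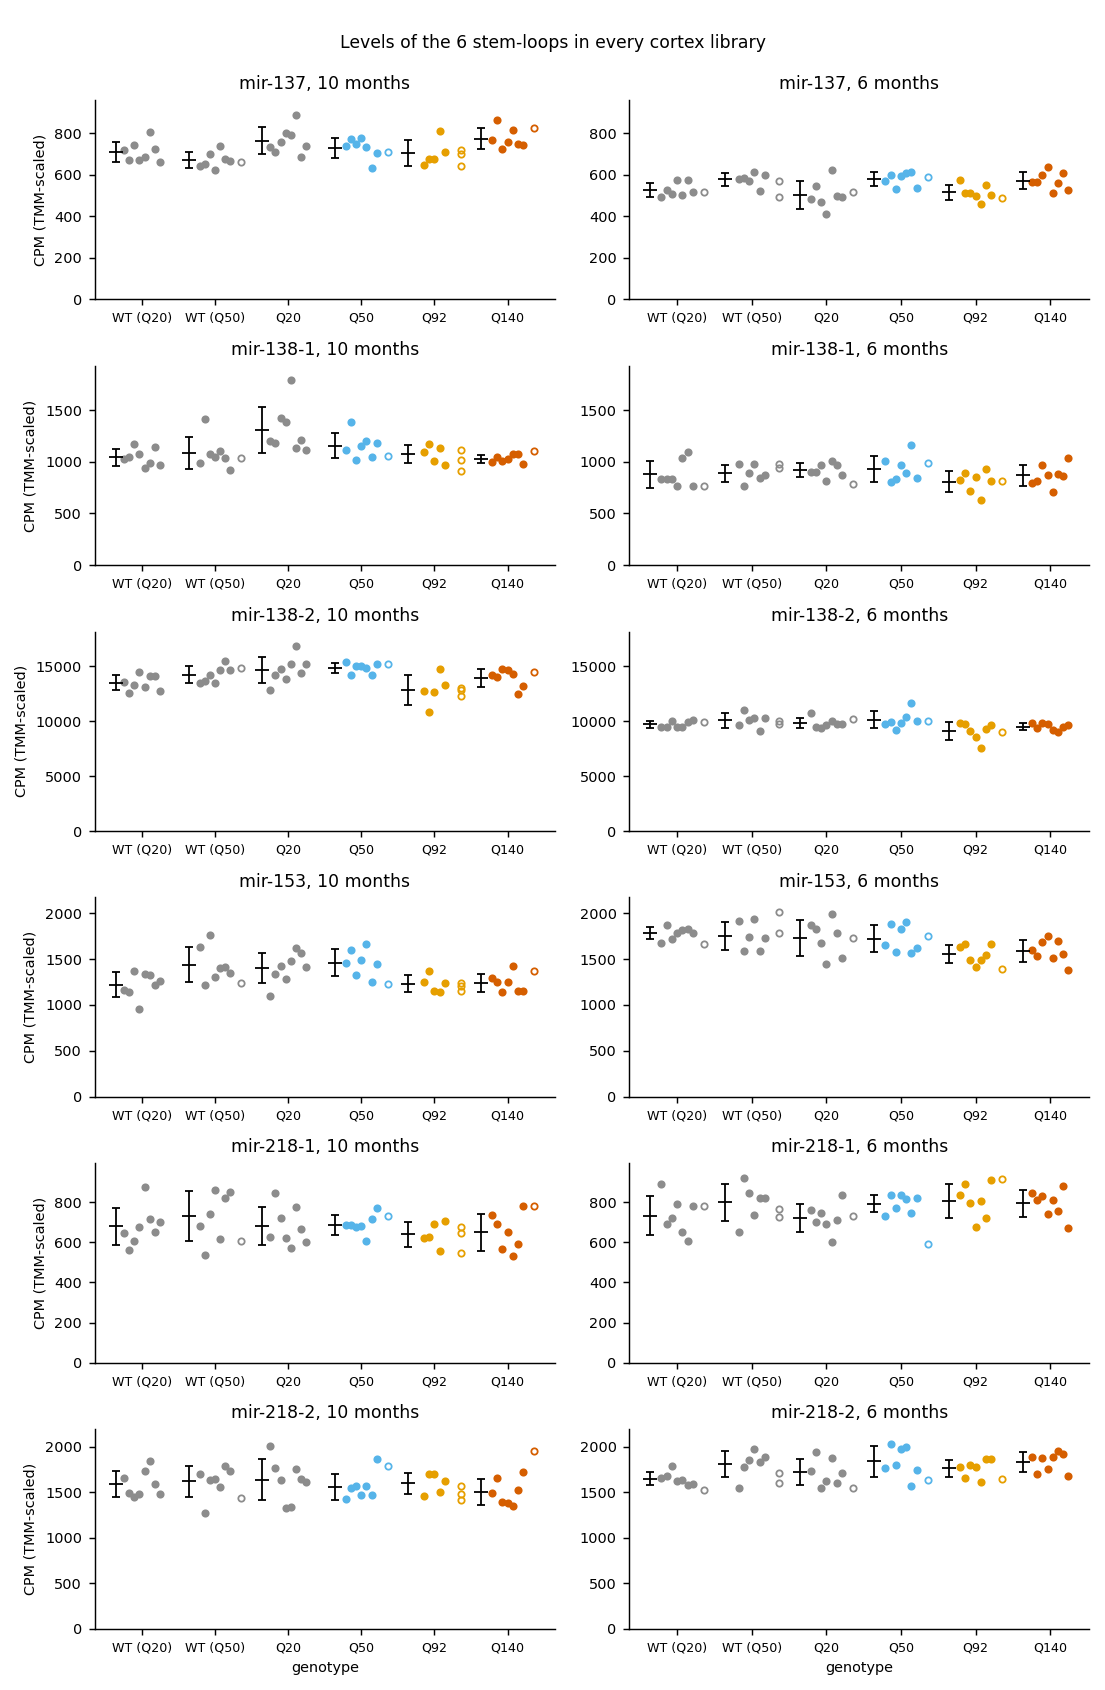
CPM (vertical axis, from 0, linear) of each stem-loop in every library by genotype, at 10 months (left) and 6 months (right). Points are mice, open points are libraries left out of the fits, and black bars are the mean ± SD of the kept libraries. Mir-138-2 sits between 12540 and 16790 CPM in the controls of 10 months, above all controls of 6 months at 9094 to 11050 CPM, and mir-153 of Q92 mice at 6 months lies low, between 1411 and 1659 CPM.

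The first question was whether these microRNAs differ in cortex with the CAG length of *Htt* at 6 months. Mir-153 was lower in Q92 mice. It ranged from 1411 to 1659 CPM in Q92 mice, with a median of 1539, against 1446 to 1990 CPM in controls, with a median of 1782. All 7 Q92 mice lay under the control median, and 16 of the 20 controls were above the highest Q92 mouse, although the ranges overlapped. The mean was 1554 ± 97.4 CPM in Q92 (SD, n = 7) and 1754 ± 142 CPM in controls (SD, n = 20), a fitted log2 change of -0.17 ± 0.04, or -11.1% (edgeR quasi-likelihood test, FDR 0.0118). Of the 6, only mir-153 was called in this comparison, where 11% of all 446 stem-loops tested were called and 6.73% were called lower.

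In Q140 mice of 6 months mir-153 ranged from 1384 to 1746 CPM, with a median of 1579, and all 8 lay under the control median of 1782. Its mean was 1589 ± 118 CPM in Q140 (SD, n = 8), a log2 change of -0.14 ± 0.04 that did not pass (edgeR FDR 0.0845). In Q50 mice it ranged from 1561 to 1903 CPM, with a median of 1650 and 4 of 7 mice under the control median, and the log2 change was -0.06 ± 0.04 (edgeR FDR 0.653). The Q50, Q92 and Q140 comparisons share their controls. 0 of the 6 stem-loops were called in Q140 by edgeR (1 at an unadjusted p under 0.05, mir-153, which DESeq2 called), where 1.8% of all stem-loops were called. In Q50 0 of 6 were called by edgeR and by DESeq2, 0 at an unadjusted p under 0.05, and 0% of all stem-loops.

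With CAG length as a numeric variable over all 6 groups of 6 months, mir-153 fell by 0.13 ± 0.03 on the log2 scale per 100 repeats (edgeR FDR 0.00445). It was the only one of the 6 called, with 12.2% of 444 stem-loops called and 8.11% called lower. At 10 months the slope of mir-153 was -0.10 ± 0.05 (edgeR FDR 0.778), and the test of the difference between the slopes of the ages gave 0.04 ± 0.06 (FDR 0.801), so that the slopes were not shown to differ. Combined over both ages by signed normal scores, the slope of mir-153 passed (mean log2 slope -0.12 ± 0.03, FDR 0.00947) as the only one of the 6, where 2.71% of 443 stem-loops were called.

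Within the libraries that carry L1 in their sample description at 6 months, the log2 change of mir-153 in Q92 was -0.23 (edgeR FDR 0.0425), and within those with L2 it was -0.11 (FDR 0.689). The labels do not say what the L field is. It was used as the batch term. The slope of mir-153 was -0.20 within L1 (FDR 0.00529) and -0.05 within L2 (FDR 0.807). With the level of the 8 stem-loops chosen on controls as a covariate, the change in Q92 was -0.17 (FDR 0.0645) and the slope -0.12 (FDR 0.0884). Both kept their direction and no longer passed. Leaving out any 1 library left the call of mir-153 in Q92 and that of its slope in place, with an FDR of at most 0.042 and 0.0139.

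**Figure D2:**
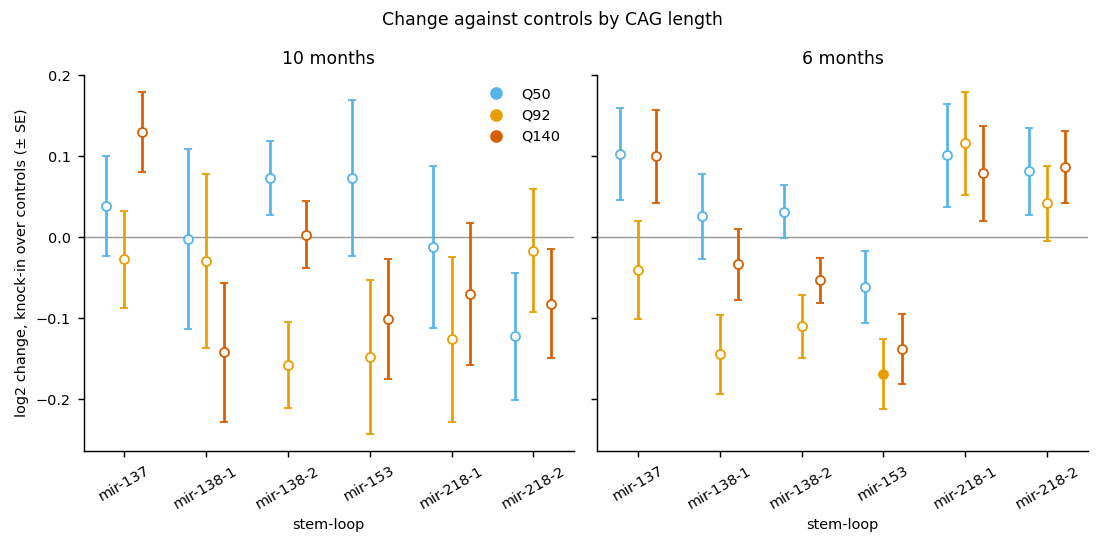
Log2 change over controls ± SE (vertical axis) of each stem-loop in Q50, Q92 and Q140 mice at 10 months (left) and 6 months (right). The filled point passed FDR 0.05 (edgeR) and open points did not. The filled point is mir-153 in Q92 at 6 months, at -0.17 ± 0.04.

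The loci of miR-138 lay near the threshold in Q92 mice of 6 months. They fell just short when fitted 1 by 1, and just passed when their reads were added. Mir-138-2 ranged from 7510 to 9802 CPM in Q92, with a median of 9265, against 9094 to 11050 CPM in controls, with a median of 9754. Of the 7 Q92 mice, 6 lay under the control median, and the lowest lay below every control. Its log2 change was -0.11 ± 0.04 (edgeR FDR 0.0636).

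Mir-138-1 ranged from 627.3 to 926.3 CPM in Q92 mice of 6 months, with a median of 827.4, against 764.4 to 1095 CPM in controls, with a median of 882.7. 5 of the 7 Q92 mice lay under the control median, and the log2 change was -0.14 ± 0.05 (edgeR FDR 0.0513). When the reads of both loci were added, which removes the question of how shared reads were divided, miR-138 fell by 0.12 ± 0.04 on the log2 scale in Q92 at 6 months (edgeR FDR 0.0468). The call of the sum and those of the single loci sat at the threshold. The sum was fitted with edgeR alone, without the other settings tried for the loci. DESeq2 called both single loci (FDR 0.0267 for mir-138-1 and 0.0256 for mir-138-2). Each locus passed in 5 of 11 other settings, the sum of both loci among them. With WT mice alone as controls neither passed (edgeR FDR 0.131 for mir-138-1 and 0.139 for mir-138-2). Within L1 their log2 changes were -0.13 and -0.07 (FDR 0.236 and 0.397), and within L2 -0.18 and -0.18 (FDR 0.519 and 0.358).

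At 10 months mir-138-2 was measured at 12752, 10835, 12621, 14689 and 13299 CPM in the 5 kept Q92 mice, against 12540 to 16790 CPM in controls, with a median of 14080. Of these, 4 of 5 lay under the control median, and the 3 Q92 libraries that were left out lay at 12241 to 12974 CPM. This gave a log2 change of -0.16 ± 0.05 (edgeR FDR 0.436). 0 of the 6 stem-loops were called in Q92 at 10 months by edgeR and by DESeq2 (1 at an unadjusted p under 0.05, mir-138-2), where 0% of 458 stem-loops were called. Combined over both ages, mir-138-2 was lower in Q92, by a mean of -0.13 ± 0.03 (FDR 0.00615), and so was mir-153, by -0.16 ± 0.05 (FDR 0.0142). These were 2 of 6, where 7.05% of 440 stem-loops were called and 5% were called lower. With reads of both loci added, miR-138 was lower in Q92 over both ages by -0.15 ± 0.03 (FDR 0.00216).

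In Q140 the loci of miR-138 did not pass at either age. At 6 months mir-138-2 ranged from 8964 to 9824 CPM in Q140, with 6 of 8 mice under the control median, and the log2 change was -0.05 ± 0.03 (edgeR FDR 0.292). At 10 months it was 0.00 ± 0.04 (FDR 0.997). Mir-138-1 in Q140 had a log2 change of -0.03 ± 0.04 at 6 months (edgeR FDR 0.705). At 10 months its change was -0.14 ± 0.09 (edgeR FDR 0.718), with all 7 mice under the control median. With reads of both loci added, miR-138 in Q140 changed by -0.06 ± 0.03 at 6 months and -0.02 ± 0.04 at 10 months (edgeR FDR 0.215 and 0.959). Over both ages combined, 0 of the 6 were called in Q140 by edgeR (2 at an unadjusted p under 0.05, mir-137 and mir-153, of which DESeq2 called mir-153), where 0.913% of 438 stem-loops were called. Q92 and Q140 were not tested against each other here.

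Mir-153 at 10 months was measured at 1254, 1365, 1148, 1138 and 1242 CPM in the kept Q92 mice and ranged from 1146 to 1422 CPM in Q140, against 958.2 to 1762 CPM in controls. The log2 changes were -0.15 ± 0.10 in Q92 (edgeR FDR 0.649) and -0.10 ± 0.07 in Q140 (FDR 0.785), close in size to those at 6 months but with larger errors. The control groups themselves were spread: mir-153 averaged 1403 ± 164 CPM in Q20 (SD, n = 8) and 1440 ± 192 CPM in WT of the Q50 line (SD, n = 7), against 1221 ± 135 CPM in WT of the Q20 line (SD, n = 8). With WT mice alone as controls, the ages combined gave -0.14 for Q92 (FDR 0.0511) and -0.10 for the slope (FDR 0.0548).

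Mir-137 passed in no comparison with controls or with CAG length as fitted here, and in Q140 it passed under 2 other settings. At 10 months it ranged from 724 to 866.1 CPM in Q140, with a median of 758.1, against 624.5 to 890 CPM in controls, with a median of 711.7. All 7 Q140 mice lay above the control median. Its log2 change was 0.13 ± 0.05 (edgeR FDR 0.327), and 0 of the 6 stem-loops were called in Q140 at 10 months by edgeR and by DESeq2 (1 at an unadjusted p under 0.05, mir-137), where 1.32% of 453 were called. With WT mice alone as controls it passed, at 0.195 (FDR 0.0184). The Q20 controls that this setting drops averaged 764.2 ± 63.9 CPM (SD, n = 8), near the 774.6 ± 49 CPM of Q140 (SD, n = 7). Mir-137 averaged 711.1 ± 49 CPM in WT of the Q20 line (SD, n = 8) and 672 ± 39.4 CPM in WT of the Q50 line (SD, n = 7). The slope with CAG length at 10 months was 0.08 ± 0.04 (FDR 0.518), and by both edgeR and DESeq2 0 of the 6 passed (1 at an unadjusted p under 0.05, mir-137), with 1.04% of 483 stem-loops called. Over both ages combined, mir-137 in Q140 had a mean log2 change of 0.11 ± 0.04 (FDR 0.102), which passed with all libraries kept (0.13, FDR 0.0407). At 6 months mir-137 averaged 572.2 ± 41.8 CPM in Q140 (SD, n = 8) and 534.3 ± 54.9 CPM in controls (SD, n = 20), with a log2 change of 0.10 ± 0.06 (FDR 0.339). Of these controls, WT of the Q50 line averaged 578.1 ± 32.2 CPM (SD, n = 6). WT of the Q20 line averaged 528 ± 33.3 CPM (SD, n = 7) and Q20 503.1 ± 66.8 CPM (SD, n = 7).

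The loci of miR-218 did not pass either. At 6 months mir-218-1 averaged 805.8 ± 83.9 CPM in Q92 (SD, n = 7) and 749.9 ± 88.7 CPM in controls (SD, n = 20), with a log2 change of 0.12 ± 0.06 (edgeR FDR 0.268). Mir-218-2 averaged 1830 ± 106 CPM in Q140 (SD, n = 8) and 1722 ± 133 CPM in controls (SD, n = 20), with a log2 change of 0.09 ± 0.04 (FDR 0.292). The slope with CAG length was 0.06 ± 0.03 at 6 months and -0.06 ± 0.04 at 10 months for mir-218-2, and 0.06 ± 0.04 and -0.08 ± 0.06 for mir-218-1. The difference of these slopes, 10 minus 6 months, was -0.11 ± 0.05 for mir-218-2 (FDR 0.232) and -0.14 ± 0.07 for mir-218-1 (FDR 0.266). 0 of the 6 passed this test with either tool (2 at an unadjusted p under 0.05, both miR-218 loci), where 1.98% of 504 stem-loops were called.

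Comparisons within a line have littermates. In Q50 against WT of the Q50 line, neither edgeR nor DESeq2 called any of the 6 at either age. The count was 0 also at an unadjusted p under 0.05 and 0% over all stem-loops, and the log2 changes lay between -0.12 and 0.10. In Q20 against WT of the Q20 line at 10 months, mir-138-1 ranged from 1112 to 1786 CPM in Q20, with a median of 1206, against 939 to 1168 CPM in WT, with a median of 1037. The log2 change of 0.32 ± 0.09 passed (edgeR FDR 0.0477), as 1 of 6 where 7.78% of 450 stem-loops were called. At an unadjusted p under 0.05 there were 3 of 6, mir-138-1, mir-138-2 and mir-153. Mir-153 had a log2 change of 0.21 ± 0.07 (edgeR FDR 0.0777) and passed in 2 of 16 fits that left out 1 library (FDR 0.0362 to 0.252). The call of mir-138-1 lay at the threshold: leaving out 1 library at a time gave log2 changes of 0.24 to 0.36, with an FDR of 0.0292 to 0.099, and it was lost in 9 of the 16 fits. The lowest of these changes came without the Q20 male of replicate 1, with the call kept. At 6 months 0 of the 6 were called in Q20 with either tool (0 at an unadjusted p under 0.05), with 0% of 441 stem-loops called. Between the WT mice of both lines 0 of the 6 passed with edgeR or with DESeq2 at either age (3 at an unadjusted p under 0.05 at 6 months and 1 at 10 months), with 0% and 0.685% of all stem-loops called at 6 and 10 months. Log2 changes, Q50 line over Q20 line, were 0.14 ± 0.06 for mir-137, 0.16 ± 0.07 for mir-218-1 and 0.13 ± 0.05 for mir-218-2 at 6 months. The rest lay between -0.02 and 0.06. For mir-153 at 10 months the change was 0.23 ± 0.09, and the rest lay between -0.10 and 0.12.

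The largest differences in these stem-loops were between the ages. The mice of 10 and of 6 months were other animals, and age cannot be told apart from the preparation of the libraries. In controls mir-138-2 ranged from 12540 to 16790 CPM at 10 months, with a median of 14080, against 9094 to 11050 CPM at 6 months, with a median of 9754. The ages did not overlap. The log2 change was 0.54 ± 0.02, or 45.1% higher (edgeR FDR 1.12e-23), the smallest p-value of the 440 stem-loops tested. In all, 44.5% of these were called between the ages, 21.6% higher and 23% lower at 10 months, so that the 4 of 6 called here, 3 of them higher and 1 lower, must be read against a high background.

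Mir-137 ranged from 624.5 to 890 CPM in controls of 10 months, with a median of 711.7, against 409.3 to 623 CPM at 6 months, with a median of 523.1. Again the ages did not overlap. The log2 change was 0.45 ± 0.04, or 36.2% higher (edgeR FDR 3.31e-12). Mir-138-1 ranged from 925.1 to 1786 CPM at 10 months, with a median of 1105, against 764.4 to 1095 CPM at 6 months, with a median of 882.7. Here 12 of 23 mice of 10 months lay above every mouse of 6 months, and the log2 change was 0.37 ± 0.06 (edgeR FDR 5.32e-07).

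Mir-153 went the other way. It ranged from 958.2 to 1762 CPM in controls of 10 months, with a median of 1336, against 1446 to 1990 CPM at 6 months, with a median of 1782. Of the 23 mice of 10 months, 18 lay below every mouse of 6 months. The log2 change was -0.36 ± 0.05, or -22.2% (edgeR FDR 8.61e-08). Mir-218-1 and mir-218-2 did not pass, with log2 changes of -0.09 ± 0.06 (FDR 0.175) and -0.07 ± 0.04 (FDR 0.133).

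Among control libraries with L2 in their description at both ages (15 at 10 months and 9 at 6 months), the same 4 stem-loops passed with the same sign: 0.51 ± 0.04 for mir-138-2, 0.48 ± 0.06 for mir-137, 0.51 ± 0.08 for mir-138-1 and -0.28 ± 0.06 for mir-153 (edgeR FDR 2.3e-10, 2.68e-06, 3.34e-05 and 0.000696). Whether L2 means the same thing at both ages is not stated.

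**Figure D3:**
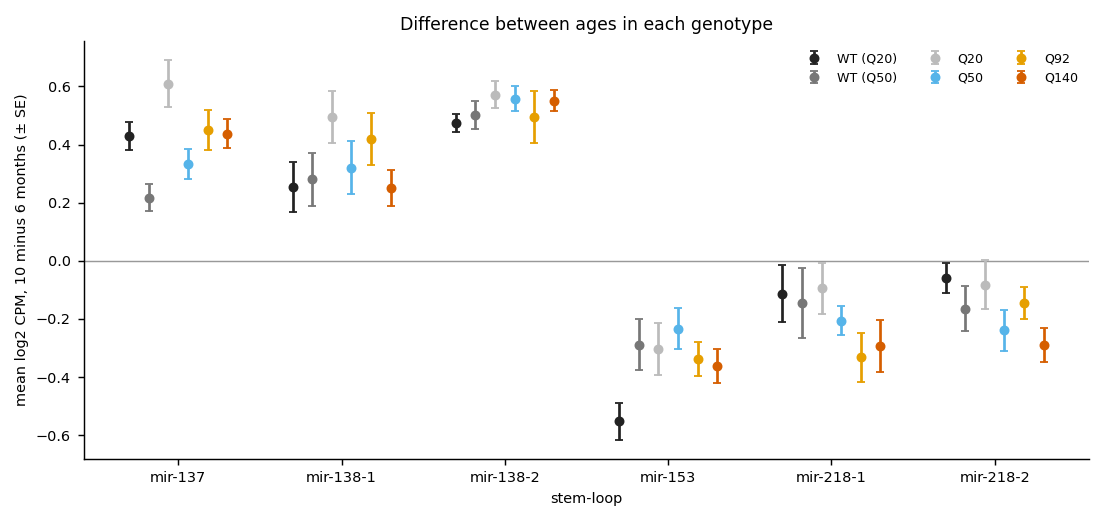
Difference in mean log2 CPM, 10 minus 6 months (vertical axis, ± SE over 5 to 8 mice an age), for each stem-loop in each genotype. Mir-137 and both mir-138 loci lie above 0 and mir-153 and both mir-218 loci below 0 in each of the 6 genotypes, from 0.61 for mir-137 in Q20 to -0.55 for mir-153 in WT of the Q20 line.

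The sign of the difference between ages was the same in every genotype for each of the 6 stem-loops, as a description without a test. Mir-138-2 averaged 12840 CPM at 10 months and 9101 CPM at 6 months in Q92, 13920 and 9496 CPM in Q140, and 13480 and 9687 CPM in WT of the Q20 line, and the ages did not overlap in any genotype. Mir-137 did not overlap in any genotype either, with differences between 0.22 ± 0.05 in WT of the Q50 line and 0.61 ± 0.08 in Q20. Mir-153 differed by -0.55 ± 0.06 in WT of the Q20 line and by -0.23 ± 0.07 in Q50. For mir-218-1 the differences lay between -0.33 ± 0.08 in Q92 and -0.09 ± 0.09 in Q20.

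Between males and females 0 of the 6 were called with either tool, edgeR or DESeq2 (0 also at an unadjusted p under 0.05), where 2.18% of 504 stem-loops were called. The log2 changes, male over female, lay between -0.02 ± 0.04 for mir-138-1 and 0.01 ± 0.03 for mir-218-2.

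How the reads of paired loci were divided can be read in part from the counts. Counts of mir-137 and mir-153 were whole numbers in every library, while those of mir-138-1 and mir-138-2 were fractional in 95 and 94 of 96 libraries and those of both miR-218 loci in all 96. The sum of both loci was whole, within 0.01, in 96 of 96 libraries for each pair. The sums leave no fraction of a read to a locus outside the pair, and the rule of the division is not stated.

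Mir-138-2 held 89.46 to 94.06% of the reads of its pair, with a median of 92.25%, and mir-218-2 held 64.31 to 76.14% of its own, with a median of 69.92%. Between genotypes of an age these shares overlapped throughout. At 6 months mir-138-2 held 91.85 ± 0.702% in Q92 (SD, n = 7) and 91.65 ± 0.897% in controls (SD, n = 20), and mir-218-2 held 68.65 ± 2.76% in Q92 and 69.68 ± 2.65% in controls. In controls mir-138-2 held 92.48 ± 1.13% at 10 months (SD, n = 23), against 91.65 ± 0.897% at 6 months.

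**Figure D4:**
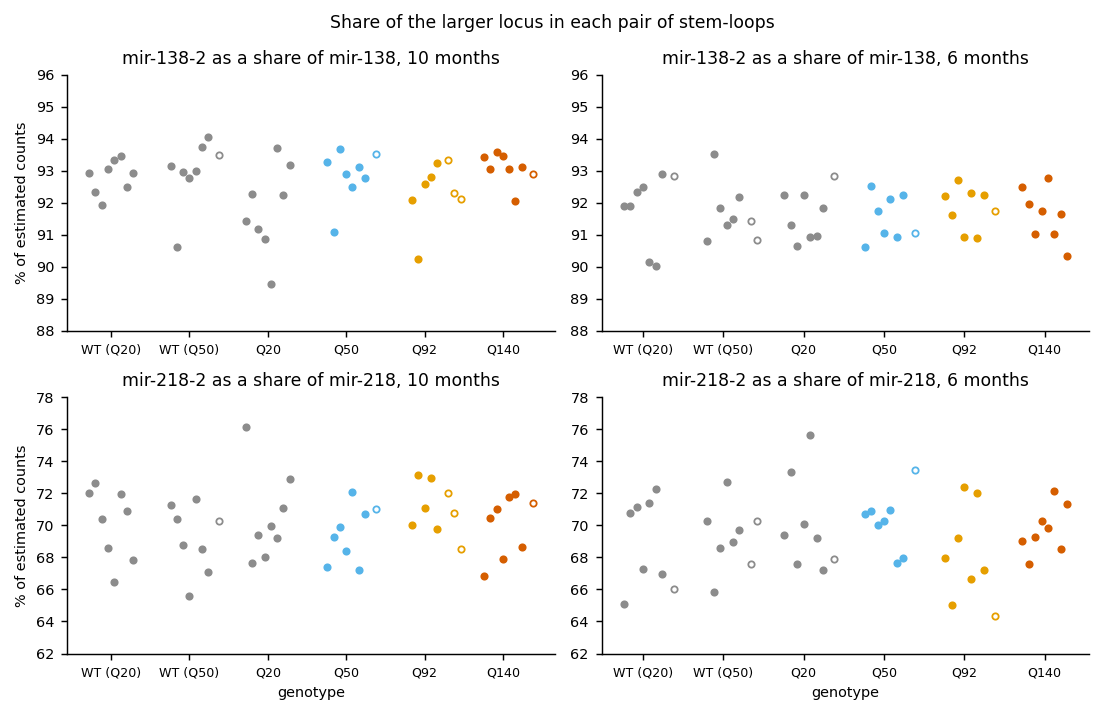
Share of estimated counts (vertical axis, in %, not from 0) that mir-138-2 (top) and mir-218-2 (bottom) hold of their pair, by genotype at 10 months (left) and 6 months (right). Points are libraries, open where left out of the fits. Groups overlap, between 89.46 and 94.06% for mir-138-2 and between 64.31 and 76.14% for mir-218-2.

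Across mice of the same group, the loci of miR-138 correlated weakly. Over the 84 kept libraries, as residuals from the group means of log2 CPM, mir-138-1 and mir-138-2 correlated with r = 0.138, and mir-218-1 and mir-218-2 with r = 0.474. Mir-137 correlated with mir-138-2 (r = 0.468) and with mir-153 (r = 0.463), while mir-138-1 and mir-218-1 gave r = -0.537. These points share libraries and their normalization, and the loci of a pair also share reads that were divided by a rule not stated. The values are a description.

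The stem-loops most like each of the 6, by the same residuals among 310 others with at least 10 CPM, are given by accession, since the files and references used pair no names with them. For mir-137 they were MI0000730 (r = 0.554), MI0000729 (r = 0.521) and MI0000728 (r = 0.516). For mir-138-1 they were MI0000823 (r = 0.848), MI0000259 (r = 0.845) and MI0021961 (r = 0.845), closer than for any other member, and mir-138-2 was not among them. For mir-138-2 they were MI0022356 (r = 0.566), MI0004524 (r = 0.529) and MI0000156 (r = 0.519). For mir-153 they were MI0005472 (r = 0.768), MI0000143 (r = 0.674) and MI0000162 (r = 0.632). For mir-218-1 they were MI0000578 (r = 0.684), MI0000142 (r = 0.664) and MI0000150 (r = 0.621), and for mir-218-2 MI0000576 (r = 0.678), MI0000150 (r = 0.645) and MI0000707 (r = 0.585). In bulk cortex a lower count from fewer cells of a type and from less RNA per cell cannot be told apart, and this holds for all values above.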

How the data were processed

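Total RNA was extracted from frozen cortex, and small RNA libraries were sequenced and aligned to the mouse genome (mm10, GRCm38) by the authors with STAR and counted with HTSeq, per the methods of the study. The processing notes of the submitters name CASAVA 1.8.2. The sources used here give no other version. The authors deposited an estimated count per stem-loop and library, not normalized, and FPKM, which equals the estimated count divided by library total and stem-loop length. Many counts of loci that share reads are fractional, which HTSeq does not give by default, and the step that divided them is not stated. The lengths implied by FPKM matched the RefSeq hairpins of all 6 stem-loops, which is the only check of their names. Mir-218-1 and mir-218-2 both have 110 bases, so that this check cannot tell them apart. Estimated counts were rounded for count models.

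The members, lists and tests were chosen with earlier results of these data known. Libraries with a robust connectivity Z under -5 were left out. Models were fitted over all stem-loops in R 4.3.3 with edgeR 4.0.16 (filterByExpr, TMM, robust quasi-likelihood test), with sex and the L field of the descriptions as covariates, Benjamini-Hochberg adjustment and FDR 0.05. The fit between ages used sex and genotype, and that between sexes used group and L field. DESeq2 1.42.0 Wald tests were an alternative, as were other settings of normalization, filter, batch, controls and pairing. CAG length was 7 for WT, with slopes per 100 repeats. The SE of an edgeR log2 change is its absolute value over the square root of the F statistic. Ages were combined by signed normal scores, and the combined log2 change is the mean of both ages. Its SE comes from the SEs of both ages, while its FDR comes from the scores, so they need not match. Among 336 comparisons of libraries within a group, none agreed within sampling noise (lowest chi-square per degree of freedom 23.5). The scripts were tested on simulated data. All 6 stem-loops are named, with the 3 most correlated others of each. Lists of other neuronal microRNAs and of markers of other cell types, also as a check of the tissue, were not analysed here, because the tables used do not pair accessions with names.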

Additional observations from a re-analysis of the deposited data

Results flagged for a closer look

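Across 72 sets of 8 libraries (6 stem-loops in 12 groups), 4 held a library far from the other 7, where chance gives about 3.6. In Q20 mice of 10 months, male replicate 1 had 1786 CPM of mir-138-1, and the next mouse had 1425 CPM. In WT mice of the Q50 line at 10 months, female replicate 2 had 1416 CPM of mir-138-1, against 1105 CPM in the next. In Q92 mice of 10 months, male replicate 3 had 812.9 CPM of mir-137, against 720.5 CPM in the next. In Q50 mice of 6 months, male replicate 1 had 591.5 CPM of mir-218-1, against 729.6 CPM in the next, and this library was left out of the fits.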

How the results depend on the processing

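Each comparison was fitted again under other settings. Of these, the fit with the 8 stem-loops chosen on controls and that within L2 at both ages were chosen after seeing the data. So was leaving single libraries out of the Q20 comparison. Of 810 log2 changes under other settings, 784 kept their side of the threshold, and 63, none of them past the threshold in the main fit or the other, changed sign with a value under 1 SE in one of the fits. In Q92 at 6 months, 3 of the 6 were called instead of 1 with DESeq2 size factors in edgeR, with DESeq2 Wald tests and with all libraries kept. With no low-count filter 2 were called, and within L2 0. L1 and L2 each hold a part of the libraries, and within L1 mir-153 kept its call (log2 change -0.23, edgeR FDR 0.0425). In Q140 at 6 months, 1 was called instead of 0 with DESeq2 Wald tests, with all libraries kept and with WT mice alone as controls. For the slope at 6 months, 2 were called instead of 1 with all libraries kept, and 0 within L2 and with the 8 stem-loops as a covariate. In Q140 at 10 months, 1 was called instead of 0 with WT mice alone as controls. In Q20 against WT littermates at 10 months, 0 were called instead of 1 with DESeq2 size factors in edgeR. Over both ages combined, Q92 had 1 instead of 2 with WT mice alone as controls, Q140 had 1 instead of 0 with DESeq2 Wald tests and with all libraries kept, and the slope had 0 instead of 1 with the 8 stem-loops as a covariate and with WT mice alone as controls. The cause of these changes was not tested. Leaving out 1 library gave 1 to 3 calls in Q92 and 0 to 1 in Q140 at 6 months, and 0 to 2 in Q20 against WT littermates at 10 months. The 4 calls between ages held in all 43 fits that left out 1 library and in the 6 other settings tried. With the replicate block, which uses the replicate number within sex as a factor, mir-153 in Q92 at 6 months had a log2 change of -0.17 (FDR 0.0163) and no call changed. Whether the numbers pair littermates is not stated. Deviations of libraries with the same number and sex correlated on average with r = -0.0149 at 6 months and 0.00216 at 10 months. These averages run over pairs from all groups of an age, most of them of different lines, so they cannot exclude a pairing within a line. A fit with an epithelial and olfactory list as covariate was not run, because accessions are not paired with names. Against controls the SE of the 6 stem-loops was 0.03 to 0.06 at 6 months and 0.04 to 0.11 at 10 months, which limits the changes that could pass.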
